A study of Mus musculus with 10 samples.

Results

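TGF-beta receptors and the proteoglycans that share the cell surface with them were followed across 4 groups of immortalized mouse marrow progenitors. The genes were the ligand Tgfb1, the receptors Tgfbr1 and Tgfbr2, betaglycan (Tgfbr3), endoglin (Eng) and the syndecans Sdc1, Sdc2, Sdc3 and Sdc4. All probe sets that the platform annotation gives to these 9 symbols were taken, which made 25 of the 45101 probe sets of the Affymetrix Mouse Genome 430 2.0 array. The genes were selected on measured values, those of the comparison of NUP98-NSD1 with HoxA9, in which Tgfbr3 and Sdc2 had stood out. That comparison is therefore given for them as a description with no p-value. For Tgfbr3 and Sdc2 no p-value is given in any comparison, and counts that include them are descriptions. The other comparisons between clone groups reuse the NUP98-NSD1 or the HoxA9 arrays. The p-values given there for the other genes are therefore not independent of the choice of genes.

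The progenitors came from mouse bone marrow and were derived in medium with stem cell factor and without GM-CSF, a condition that all groups shared. They were immortalized by NUP98-NSD1 (3 clones), MLL-ENL (1 array), HoxA9 with Meis1 (written HoxA9+Meis1, 3 clones) or HoxA9 alone (3 clones), and total RNA of each of the 10 cultures was read on 1 array. NUP98-NSD1 fuses a nucleoporin to a histone methyltransferase, MLL-ENL fuses another histone methyltransferase to an elongation factor, HoxA9 is a homeobox protein that binds DNA, and Meis1 is its homeobox cofactor. The samples other than MLL-ENL are labelled as clones, and the labels give no strain, sex or age and do not say that clones came from separate animals, so p-values may measure technical spread only. All 12 of the myeloid progenitor markers checked lay above the level used as a filter, with Mpo (myeloperoxidase) at signals of 126200 to 237929 over the arrays. Their levels differed between groups, with sums of 881505 to 1116546 in NUP98-NSD1, 1004397 in MLL-ENL, 493554 to 501073 in HoxA9+Meis1 and 696619 to 725074 in HoxA9. Elane read 13902 to 25137 in HoxA9+Meis1 against 106958 to 116367 in HoxA9. Mpo went the other way, at 145387 to 151814 against 126200 to 142660.

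TGF-beta1 is secreted in a latent form, and once active it binds the type II receptor kinase Tgfbr2, which phosphorylates the type I receptor kinase Tgfbr1, and Tgfbr1 in turn phosphorylates Smad proteins. Betaglycan and endoglin are co-receptors without kinase activity: betaglycan presents TGF-beta2 and inhibin to their receptors, and endoglin binds BMP9 and is best known from blood vessel walls, but also marks blood stem cells. Syndecans are membrane proteins that carry heparan sulfate chains, which hold growth factors near the cell, and betaglycan carries such chains too. In marrow, TGF-beta is known for holding blood stem cells in a resting state.

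Promoter windows from RefSeq (build GRCm38.p6, 250 bases before to 50 bases after a start site) were available for 7 of the 9 genes, in 8 windows. Tgfbr3 and Sdc2 had no window, so the motif counts below do not cover them, and Tgfbr1 had 2 windows. Those of Eng, Tgfbr2 and Tgfb1 are shown because these 3 genes were higher in NUP98-NSD1 than in HoxA9+Meis1 clones, as given further on. Capitals mark the Ets core AGGAAG and the Sp1 motif GGGCGG, on either strand, so that CTTCCT and CCGCCC are the same motifs read on the other strand.
Eng, chr2:32646345-32646644, plus strand: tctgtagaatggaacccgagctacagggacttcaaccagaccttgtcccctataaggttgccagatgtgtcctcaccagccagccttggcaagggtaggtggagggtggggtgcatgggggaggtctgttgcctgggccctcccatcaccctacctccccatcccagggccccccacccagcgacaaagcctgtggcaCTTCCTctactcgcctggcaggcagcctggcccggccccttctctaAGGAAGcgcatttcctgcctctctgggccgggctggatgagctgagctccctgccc
Tgfbr2, chr9:116175314-116175613, minus strand: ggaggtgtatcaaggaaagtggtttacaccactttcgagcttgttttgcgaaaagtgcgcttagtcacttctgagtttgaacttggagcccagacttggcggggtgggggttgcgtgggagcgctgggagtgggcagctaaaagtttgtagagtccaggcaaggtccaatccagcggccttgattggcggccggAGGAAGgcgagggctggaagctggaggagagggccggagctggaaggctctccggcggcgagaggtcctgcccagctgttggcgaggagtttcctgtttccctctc
Tgfb1, chr7:25686752-25687051, plus strand: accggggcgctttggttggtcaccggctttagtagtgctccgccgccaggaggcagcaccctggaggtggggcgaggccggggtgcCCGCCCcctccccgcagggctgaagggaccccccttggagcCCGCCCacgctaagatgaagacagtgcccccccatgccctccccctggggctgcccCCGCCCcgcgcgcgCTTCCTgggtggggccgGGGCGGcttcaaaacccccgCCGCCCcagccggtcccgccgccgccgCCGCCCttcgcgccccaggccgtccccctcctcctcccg
AGGAAG occurred in 7 of the 8 windows, against 35.4% of 32851 promoter windows of the same length, and GGGCGG in 5 of the 8, against 35.7%. The Meis letters TGACAG were in 0 of the 8 windows, against 19.2% of all, and the Smad letters CAGACA in 2 of the 8, against 21.0%. In Eng the 2 AGGAAG matches began 52 and 6 bases before the start site (positions -52 and -6), and the Tgfb1 window held 6 GGGCGG matches. No marked match overlaps another in the windows shown, and a match or its absence describes the window alone.

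The arrays fell into 2 sets that coincide with the groups. The 18 probe sets for hybridization controls, transcripts added to each sample, had mean log2 values of 14.01 to 14.13 on the arrays of both fusions, against 13.18 to 13.42 on those of HoxA9+Meis1 and HoxA9. The mean control difference was 0.77 between NUP98-NSD1 and either HoxA9+Meis1 or HoxA9, but 0 between HoxA9+Meis1 and HoxA9 and -0.06 between MLL-ENL and NUP98-NSD1. Differences across the sets cannot be told apart from the array set, and only the comparisons of HoxA9+Meis1 with HoxA9 and of MLL-ENL with NUP98-NSD1 lie within a set. Signals are the deposited linear intensities, which are unitless, and log2 differences and folds were taken on signal + 32. Of the 25 probe sets, 21 exceeded the filter level of 369.318 in at least 3 arrays, and each of the 9 genes had at least 1 of these.

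Tgfb1, the ligand, was higher in the NUP98-NSD1 clones, and the MLL-ENL array lay at their level. Probe set 1420653_at read 44823, 47526 and 39867 in the NUP98-NSD1 clones, 46124 on the MLL-ENL array, 27337, 28334 and 30510 in the HoxA9+Meis1 clones, and 28561, 28282 and 27820 in the HoxA9 clones. Each NUP98-NSD1 clone and the MLL-ENL array lay above all 6 other arrays, and the HoxA9+Meis1 and HoxA9 values overlapped. NUP98-NSD1 was 1.53-fold above HoxA9+Meis1 (log2 difference 0.61, SE 0.08, limma adjusted p = 4.9e-04), and 1.56-fold above HoxA9. This step falls between the 2 array sets and cannot be told apart from them. HoxA9+Meis1 and HoxA9, which share an array set, differed by 0.02 (SE 0.08, adjusted p = 0.946). The dimmer Tgfb1 probe set 1445360_at passed the test in neither comparison tested, and it averaged 1137 ± 293 in NUP98-NSD1, 1282 ± 81.2 in HoxA9+Meis1 and 1168 ± 104 in HoxA9 clones (SD, n = 3 each), with 551 for MLL-ENL.

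Tgfbr2, the type II receptor, was also higher in the NUP98-NSD1 clones. Probe set 1426397_at read 8629, 7907 and 6235 in NUP98-NSD1, 6881 in MLL-ENL, 4153, 4264 and 3927 in HoxA9+Meis1, and 4370, 3089 and 3027 in HoxA9. The fusion arrays again lay above all 6 others. NUP98-NSD1 exceeded HoxA9+Meis1 1.82-fold (log2 difference 0.87, SE 0.17, adjusted p = 0.00343) and HoxA9 2.17-fold (log2 difference 1.12), and both differences cross the array sets. Between HoxA9+Meis1 and HoxA9 the difference was 0.25 (SE 0.17, adjusted p = 0.489). The other Tgfbr2 probe sets, 1422019_at and 1425444_a_at, stayed under the filter, with 0 and 1 arrays above its level.

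Tgfbr1, the type I receptor that passes the signal to Smads, passed no test on any of its 3 probe sets. The brightest, 1420895_at, read 11290, 11840 and 8960 in NUP98-NSD1, 8015 in MLL-ENL, 10676, 10281 and 12480 in HoxA9+Meis1, and 8021, 8239 and 10399 in HoxA9, with overlap between every pair of clone groups. NUP98-NSD1 and HoxA9+Meis1 differed by -0.06 on the log2 scale (SE 0.14, adjusted p = 0.76), and the difference was 0.33 between HoxA9+Meis1 and HoxA9 (SE 0.14, adjusted p = 0.227). The sign of that -0.06 turned, to 0.09, when arrays were shifted to a common median. A dimmer probe set, 1420893_a_at, averaged 608 ± 88.5 in NUP98-NSD1 against 1003 ± 201 in HoxA9+Meis1 clones (SD, n = 3 each). Those groups did not overlap, but the difference of -0.69 (SE 0.25) had an adjusted p of 0.0632. MLL-ENL read 401 there, which was under all 9 clones. The third probe set, 1420894_at, differed by 0.20 and -0.17 in the 2 comparisons tested, neither past the threshold.

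Tgfbr3, betaglycan, was bright in HoxA9 clones and dim in the others. Probe set 1433795_at read 412, 138 and 147 in NUP98-NSD1, 2558 in MLL-ENL, 154, 136 and 604 in HoxA9+Meis1, and 7930, 7239 and 11027 in HoxA9. HoxA9 thus stood highest, the single MLL-ENL array lay between, and NUP98-NSD1 and HoxA9+Meis1 overlapped, with 4 of their 6 arrays under the filter level. The geometric mean of signal + 32 was 36.2-fold lower in NUP98-NSD1 than in HoxA9 (log2 difference -5.18, SE 0.52). In HoxA9+Meis1 it was 31.8-fold lower than in HoxA9 (-4.99, SE 0.52), a difference within 1 array set. Both figures share the HoxA9 arrays, and in RNA from whole cultures, fewer cells of a type and less RNA per cell cannot be told apart.

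The second betaglycan probe set showed a smaller step. Probe set 1425620_at read 1030, 315 and 74.5 in NUP98-NSD1, 251 in MLL-ENL, 736, 590 and 1022 in HoxA9+Meis1, and 1381, 1459 and 1744 in HoxA9. All HoxA9 clones were above all other arrays on it as well. HoxA9+Meis1 was 1.95-fold below HoxA9 there (log2 difference -0.96, SE 0.65), and NUP98-NSD1 was 4.57-fold below (-2.19, SE 0.65). MLL-ENL differed between the probe sets: on 1433795_at it was above both NUP98-NSD1 and HoxA9+Meis1 clones, and on 1425620_at it was below every HoxA9+Meis1 clone. Without NUP98-NSD1 clone 1 the difference from HoxA9 on 1425620_at was -3.01, and without NUP98-NSD1 clone 3 it was -1.35.

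Eng, endoglin, was bright in the NUP98-NSD1 clones and not in the MLL-ENL culture. Probe set 1417271_a_at read 7004, 7531 and 8762 in NUP98-NSD1, 435 in MLL-ENL, 598, 1068 and 339 in HoxA9+Meis1, and 499, 800 and 1168 in HoxA9. The lowest NUP98-NSD1 clone stood above the highest of the 7 other arrays, which overlapped among themselves. NUP98-NSD1 exceeded HoxA9+Meis1 12.2-fold (log2 difference 3.61, SE 0.39, adjusted p = 1.6e-04) and HoxA9 9.60-fold (log2 difference 3.26). HoxA9+Meis1 and HoxA9 differed by -0.35 (SE 0.39, adjusted p = 0.756). The log2 difference of MLL-ENL from the NUP98-NSD1 mean was -4.06, and these 4 arrays share an array set with a control difference of -0.06.

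The second endoglin probe set had the same order with one difference. Probe set 1432176_a_at read 1284, 1064 and 1076 in NUP98-NSD1, 95.5 in MLL-ENL, 456, 398 and 85.2 in HoxA9+Meis1, and 107, 91.2 and 104 in HoxA9. Here 2 of the 3 HoxA9+Meis1 clones were above every HoxA9 clone and the third was below them. NUP98-NSD1 was 4.02-fold above HoxA9+Meis1 (log2 difference 2.01, SE 0.55, adjusted p = 0.0188), and without NUP98-NSD1 clone 1 it was 1.92 with an adjusted p of 0.0518. It was at least 2.91-fold above HoxA9, whose clones were all under the filter level and were set to that level. HoxA9+Meis1 and HoxA9 differed by 1.13 (adjusted p = 0.299), or by 1.79 without HoxA9+Meis1 clone 3, with an adjusted p of 0.0341. Both endoglin probe sets carry a suffix that Affymetrix gives to sets that read several transcripts of one gene.

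Markers of cells known to carry endoglin were read beside it. The summed signal of 10 endothelial markers was 4516 to 11135 in NUP98-NSD1, 5774 in MLL-ENL, 9361 to 11204 in HoxA9+Meis1 and 4833 to 8016 in HoxA9. Of this, Pecam1, which myeloid cells also express, read 1942 to 8110 in NUP98-NSD1 and 2635 in MLL-ENL. It read 5841 to 6736 in HoxA9+Meis1, most of the sum there, and 434 to 2872 in HoxA9, a smaller part. All 10 are on the array and 7 passed the filter. Cdh5, the cadherin of endothelial junctions, read 179 to 262 in NUP98-NSD1 clones and 74.5 in MLL-ENL, under the filter level, against 249 to 479 in HoxA9+Meis1 and 453 to 512 in HoxA9 clones. Kdr, Esam and Cldn5 of the same list were also lower in NUP98-NSD1 than in HoxA9, without overlap. Kdr read 193 to 577 against 1642 to 1942 and Esam 50.7 to 251 against 568 to 785. Cldn5 read 348 to 561 against 658 to 981. Pecam1, Tek and Emcn overlapped between these groups. Vwf, Plvap and Tie1 were higher in NUP98-NSD1 than in HoxA9, without overlap. Vwf, the von Willebrand factor, read 179 to 479 in NUP98-NSD1 and 374 in MLL-ENL, against 11.3 to 60.3 in HoxA9+Meis1 and 10.5 to 52.4 in HoxA9, and did not pass the filter. Plvap, of endothelial pores, read 299 to 868 in NUP98-NSD1 and 396 in MLL-ENL, against 25.1 to 319 in HoxA9+Meis1 and 79.5 to 124 in HoxA9. Tie1, an endothelial receptor, read 41.3 to 425 in NUP98-NSD1 and 28.1 in MLL-ENL. It read 14.7 to 37.1 in HoxA9+Meis1 and 29.4 to 37.4 in HoxA9 and, like Vwf, did not pass the filter. The part of these markers in the endoglin difference was not tested. The sum of 9 erythroid markers was 3972 to 8039 in NUP98-NSD1, 3692 in MLL-ENL, 4577 to 4864 in HoxA9+Meis1 and 4407 to 5469 in HoxA9. The erythroid factor Gata1 read 521 to 2295 in NUP98-NSD1 and 484 in MLL-ENL. It read 458 to 700 in HoxA9+Meis1 and 417 to 738 in HoxA9, so the clone groups overlapped. Ermap was lower in NUP98-NSD1 than in HoxA9 without overlap, at 215 to 414 against 617 to 665. So was Hba-a1, at 131 to 328 against 331 to 531. Alas2 was higher, at 40.4 to 91.2 against 26.6 to 37.6, under the filter level. Epor was lower than in HoxA9+Meis1 without overlap, at 519 to 1099 against 1150 to 1414. The part of the erythroid markers in the endoglin difference was not tested.

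**Figure D1:**
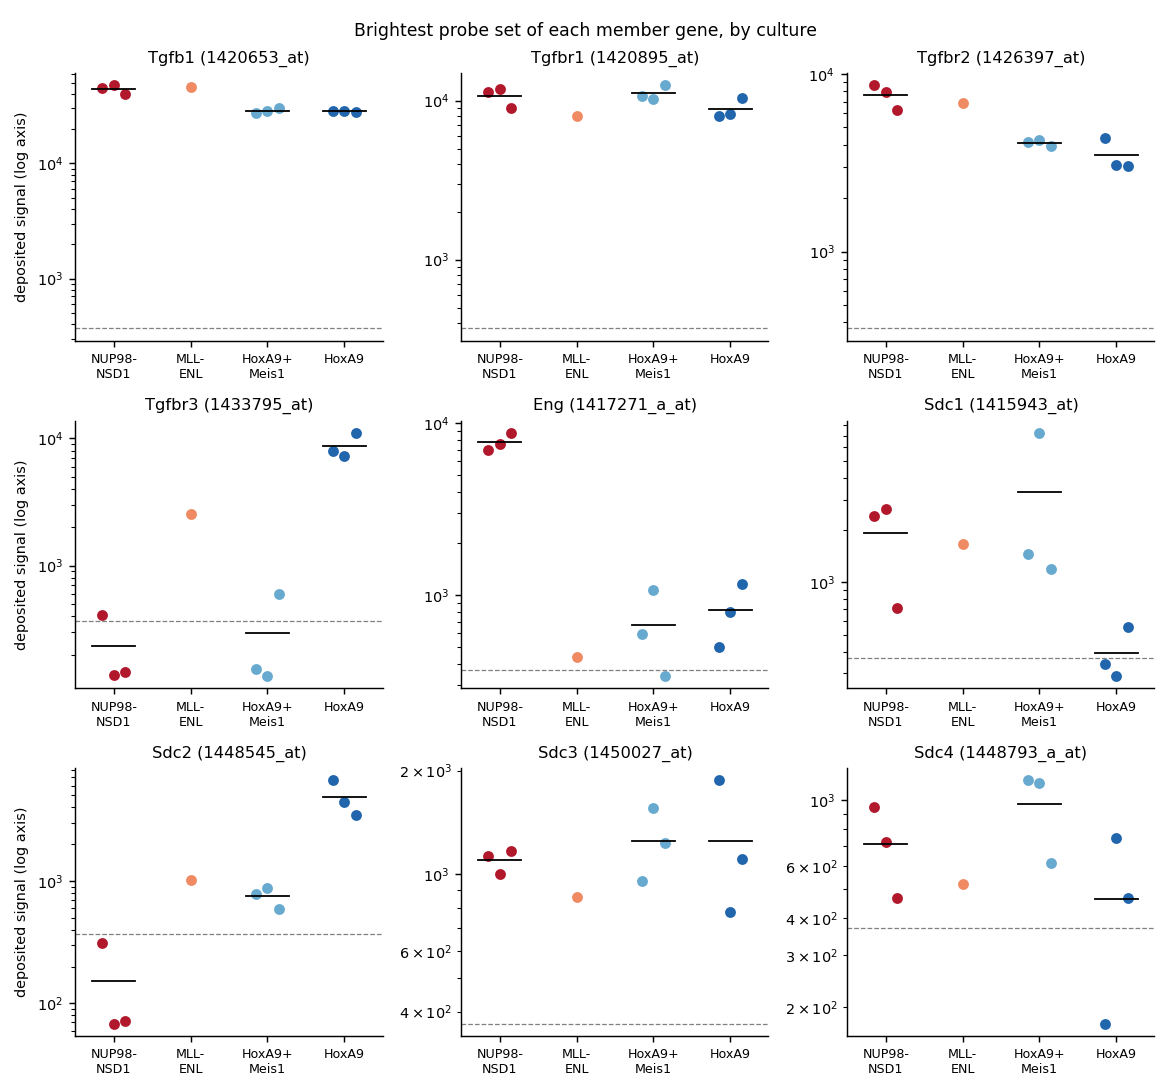
Deposited signal (log axis) of the brightest probe set of each of the 9 genes, with 1 point per array and a bar at the mean of each group of clones, for NUP98-NSD1, MLL-ENL, HoxA9+Meis1 and HoxA9 from left to right. The dashed line is the filter level of 369.318. Endoglin is at 7004 to 8762 in the NUP98-NSD1 clones alone, and betaglycan and Sdc2 are highest in the HoxA9 clones.

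Among the syndecans, Sdc1 was lowest in the HoxA9 clones. Probe set 1415943_at read 2410, 2640 and 715 in NUP98-NSD1, 1663 in MLL-ENL, 1453, 7245 and 1191 in HoxA9+Meis1, and 339, 290 and 558 in HoxA9. Every other array was above all 3 HoxA9 clones, and HoxA9+Meis1 clone 2 was above the rest. HoxA9+Meis1 exceeded HoxA9 5.72-fold (log2 difference 2.52, SE 0.66, adjusted p = 0.0472), within 1 array set. That call rests on its setting: without HoxA9+Meis1 clone 2 the difference was 1.71 (adjusted p = 0.128). Leaving out HoxA9 clone 1, 2 or 3, or HoxA9+Meis1 clone 1, kept it at 2.34 to 2.85 but raised the adjusted p to between 0.0707 and 0.149. NUP98-NSD1 and HoxA9+Meis1 overlapped and differed by -0.48 (SE 0.66, adjusted p = 0.615), and NUP98-NSD1 was 4.10-fold above HoxA9.

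The other Sdc1 probe sets also had higher means in HoxA9+Meis1 than in HoxA9. Probe set 1437279_x_at, whose suffix marks possible cross-hybridization, read 2467, 2020 and 514 in NUP98-NSD1, 2346 in MLL-ENL, 633, 5058 and 560 in HoxA9+Meis1, and 5.90, 8.78 and 52.9 in HoxA9. HoxA9+Meis1 was at least 3.14-fold above HoxA9, with the HoxA9 clones set to the filter level, and the adjusted p was 0.00765. The fitted log2 difference was 4.63 (SE 0.83), and without HoxA9+Meis1 clone 2 it was 3.63 (adjusted p = 0.0196). On 1415944_at all 3 HoxA9+Meis1 clones were above the HoxA9 clones, at 248, 2598 and 454 against 204, 217 and 221, with an adjusted p of 0.247. The fourth probe set, 1448158_at, exceeded the filter level on 1 array alone, HoxA9+Meis1 clone 2 at 1964.

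Sdc1 is known as the plasma cell antigen CD138, so markers of plasma cells were read as well. The sum of 8 of them was 44448 to 50777 in NUP98-NSD1, 71276 in MLL-ENL, 73735 to 97552 in HoxA9+Meis1 and 64817 to 86226 in HoxA9, most of it from Xbp1 and Ighm. Jchain, the joining chain of secreted antibody, read 23.8 to 265 in NUP98-NSD1 and 217 in MLL-ENL, against 400 to 559 in HoxA9+Meis1 and 360 to 471 in HoxA9. Mzb1, a chaperone of antibody-secreting cells, read 526 to 735 in NUP98-NSD1 and 366 in MLL-ENL, against 1529 to 4443 in HoxA9+Meis1 and 1182 to 1415 in HoxA9. Ighm, the heavy chain of IgM, read 2562 to 3059 in NUP98-NSD1 and 23393 in MLL-ENL, against 34683 to 53305 in HoxA9+Meis1 and 17729 to 34656 in HoxA9. Mzb1 and Ighm thus moved with Sdc1 between HoxA9+Meis1 and HoxA9, without overlap. Xbp1 moved the opposite way without overlap, at 29951 to 36493 in HoxA9+Meis1 and 42732 to 49381 in HoxA9. The HoxA9+Meis1 and HoxA9 ranges of Jchain, Prdm1, Irf4, Tnfrsf17 and Derl3 overlapped. The part of the plasma cell markers in the Sdc1 difference was not tested.

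Sdc2, the syndecan best known from fibroblasts and other mesenchymal cells, was brightest in HoxA9 clones on 3 of its 4 probe sets. Probe set 1448545_at read 314, 68.5 and 71.4 in NUP98-NSD1, 1013 in MLL-ENL, 784, 881 and 585 in HoxA9+Meis1, and 6621, 4454 and 3436 in HoxA9. The order was HoxA9, MLL-ENL, HoxA9+Meis1 and NUP98-NSD1, and no clone groups overlapped. NUP98-NSD1 was at least 11.7-fold lower than HoxA9 and at least 1.92-fold lower than HoxA9+Meis1, with NUP98-NSD1 set to the filter level. HoxA9+Meis1 was 6.09-fold lower than HoxA9 (log2 difference -2.61, SE 0.46), within 1 array set.

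The remaining Sdc2 probe sets agreed in part. Probe set 1417011_at read 121, 33.5 and 26.3 in NUP98-NSD1, 699 in MLL-ENL, 23.0, 216 and 14.9 in HoxA9+Meis1, and 4647, 2439 and 1742 in HoxA9. Probe set 1417012_at read 58.0, 42.6 and 33.6 in NUP98-NSD1, 937 in MLL-ENL, 32.9, 42.1 and 26.2 in HoxA9+Meis1, and 5196, 2966 and 2148 in HoxA9. On both, NUP98-NSD1 and HoxA9+Meis1 clones were under the filter level and at least 6.82-fold and at least 8.09-fold below HoxA9. NUP98-NSD1 and HoxA9+Meis1 were thus separated on 1448545_at but not on these 2 probe sets. The fourth, 1431474_at, did not share the pattern, with averages of 238 ± 75.4 in NUP98-NSD1, 342 ± 144 in HoxA9+Meis1 and 308 ± 229 in HoxA9 (SD, n = 3 each), and 110 in MLL-ENL.

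Stromal markers were read beside betaglycan and Sdc2, which mesenchymal cells carry. The sum of 10 stromal markers was 3027 to 5796 in NUP98-NSD1, 2707 in MLL-ENL, 4362 to 5731 in HoxA9+Meis1 and 4337 to 5158 in HoxA9, so the HoxA9+Meis1 and HoxA9 ranges overlapped. Col1a1, a fibrillar collagen, read 152 to 198 in NUP98-NSD1, 166 in MLL-ENL, 327 to 589 in HoxA9+Meis1 and 384 to 404 in HoxA9. The mesenchymal receptor Pdgfra read 67.1 to 249 in NUP98-NSD1, 278 in MLL-ENL, 778 to 862 in HoxA9+Meis1 and 712 to 895 in HoxA9. Its relative Pdgfrb was high in NUP98-NSD1 instead, at 381 to 2279, with 130 in MLL-ENL, 5.77 to 434 in HoxA9+Meis1 and 5.09 to 23.3 in HoxA9. Of the 10 markers 7 passed the filter, and the part of such cells was not tested in any of the comparisons.

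Sdc3 and Sdc4, the other members of the family, passed no test with all clones. Sdc3 probe set 1450027_at averaged 1100 ± 87.8 in NUP98-NSD1, 1251 ± 303 in HoxA9+Meis1 and 1253 ± 562 in HoxA9 (SD, n = 3 each), with 860 in MLL-ENL. On the second, 1420853_at, the NUP98-NSD1 clones read 1697, 683 and 68.9, a span wider than that of any other group, against 1453, 1403 and 1170 in HoxA9+Meis1 and 1465, 1576 and 1940 in HoxA9. NUP98-NSD1 and HoxA9+Meis1 differed there by -1.45 (SE 0.77, adjusted p = 0.178), and without NUP98-NSD1 clone 1 by -2.35 (adjusted p = 0.0255). The third, 1436482_a_at, was above the filter level on the MLL-ENL array alone, at 431.

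Sdc4 lay closer to the filter level. Probe set 1448793_a_at read 948, 723 and 467 in NUP98-NSD1, 521 in MLL-ENL, 1167, 1140 and 616 in HoxA9+Meis1, and 176, 747 and 469 in HoxA9. The groups overlapped, and HoxA9+Meis1 differed from HoxA9 by 1.16 (SE 0.49, adjusted p = 0.218). Probe set 1417654_at read 376, 240 and 39.7 in NUP98-NSD1, 22.9 in MLL-ENL, 909, 792 and 407 in HoxA9+Meis1, and 453, 421 and 104 in HoxA9. NUP98-NSD1 and HoxA9+Meis1 did not overlap there, but the difference of -1.81 (SE 0.74) had an adjusted p of 0.0862.

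**Figure D2:**
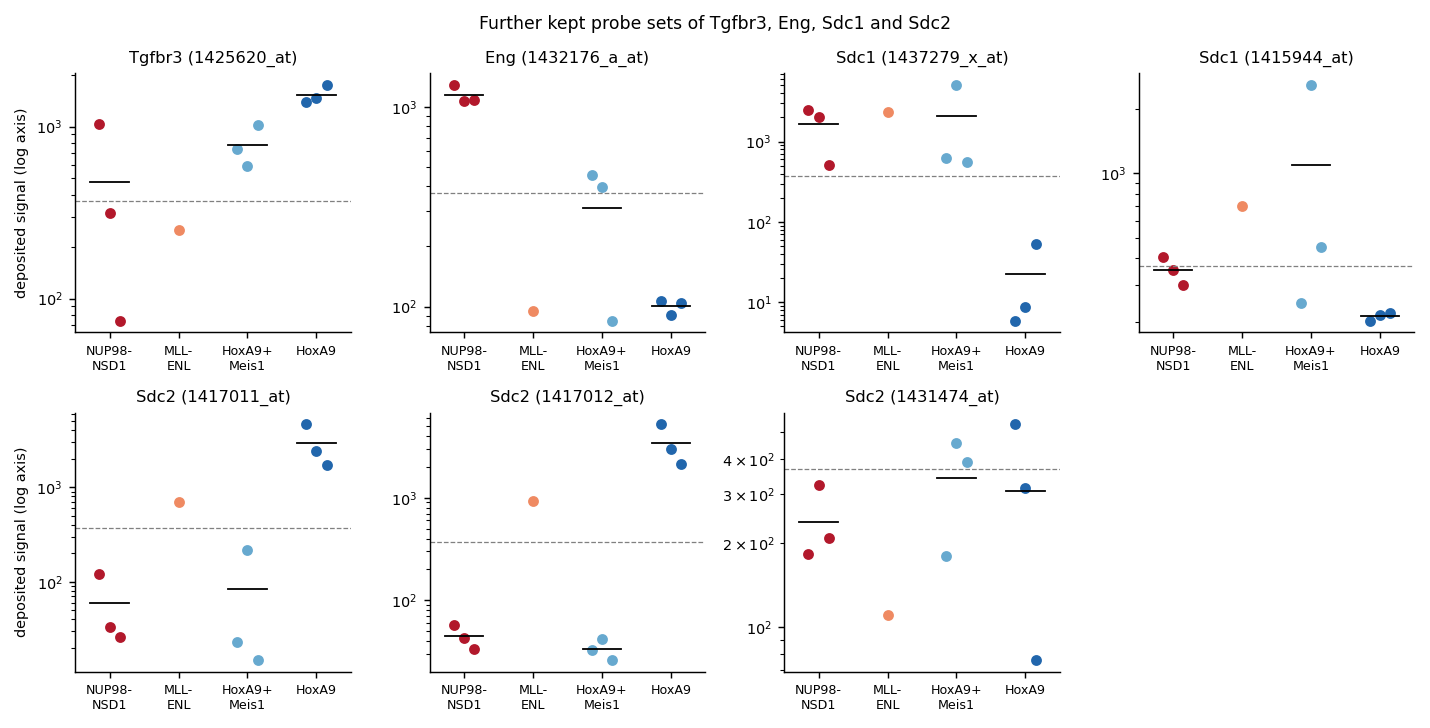
Deposited signal (log axis) of the further probe sets of Tgfbr3, Eng, Sdc1 and Sdc2 that passed the filter, with 1 point per array, a bar at the mean of each group of clones and the filter level of 369.318 as a dashed line. HoxA9 clones are highest on the betaglycan set and on 2 of the 3 Sdc2 sets and lowest on both Sdc1 sets, and Sdc2 1431474_at shows no such step.

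Counted over probe sets, 5 of 21 passed in NUP98-NSD1 relative to HoxA9+Meis1, where 30.9% of all 30945 probe sets tested did (13.8% higher, 17.2% lower). The 4 higher ones were the 2 of Eng and the brightest of Tgfb1 and Tgfbr2, and the lower one was Sdc2 1448545_at. Between HoxA9+Meis1 and HoxA9, 6 of 21 passed, against 6.89% of all (3.40% higher, 3.49% lower): the 2 higher ones were Sdc1, and the 4 lower ones were 1 of Tgfbr3 and 3 of Sdc2. Tgfbr3 and Sdc2 were chosen on the NUP98-NSD1 and HoxA9 arrays, which these 2 comparisons share, so their sets add no support to either count. Among the 15 sets of the 7 other genes, 4 passed in NUP98-NSD1 relative to HoxA9+Meis1 and 2 in HoxA9+Meis1 relative to HoxA9. Both comparisons share arrays with the one on which the genes were chosen. The median log2 difference of the 21 was -0.19 between NUP98-NSD1 and HoxA9+Meis1, against -0.13 over all probe sets, and 0.06 between HoxA9+Meis1 and HoxA9, against -0.02.

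Between NUP98-NSD1 and HoxA9, 11 of 21 were past the same threshold (6 higher, 5 lower), against 29.0% of all probe sets (12.3% higher, 16.7% lower), a count that the choice of genes used. Clone groups did not overlap for 13 of 21 there (43.8% of all). They did not overlap for 7 of 21 in NUP98-NSD1 set against HoxA9+Meis1 (45.0% of all) or for 9 of 21 in HoxA9+Meis1 set against HoxA9 (28.6% of all). Shifting arrays to a common median changed the median of all probe sets by over 0.1, to 0.05 between NUP98-NSD1 and HoxA9, from -0.14 as deposited, and to 0.02 between NUP98-NSD1 and HoxA9+Meis1. The counts of these 21 by direction were the same under both scalings. Over all probe sets the split turned, with 3815 higher and 5164 lower between NUP98-NSD1 and HoxA9 as deposited and 4453 higher and 2472 lower with a common median. For NUP98-NSD1 and HoxA9+Meis1 it was 4262 higher and 5313 lower as deposited, and 4499 higher and 2876 lower with a common median.

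The single MLL-ENL array has no replicate and no test, and a probe set was counted where it was at least 2-fold from the clone mean and outside the clone range. Against NUP98-NSD1, its own array set, 4 of 21 were higher and 3 lower (of all probe sets 16.5%, with 4.68% higher and 11.9% lower). The higher ones were Tgfbr3 1433795_at and 3 of Sdc2, whose NUP98-NSD1 clones are mostly under the filter level, and the lower ones were both of Eng and Sdc4 1417654_at. Against HoxA9+Meis1, 3 were higher and 5 lower (of all 26.7%, with 6.95% higher and 19.7% lower). Against HoxA9, 3 were higher, all Sdc1, and 8 lower (of all 23.5%, with 4.66% higher and 18.8% lower), among them both of Tgfbr3 and 3 of Sdc2. Betaglycan and Sdc2 thus had a level in MLL-ENL between HoxA9 and the other clones on 1433795_at and on the 3 Sdc2 sets.

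**Figure D3:**
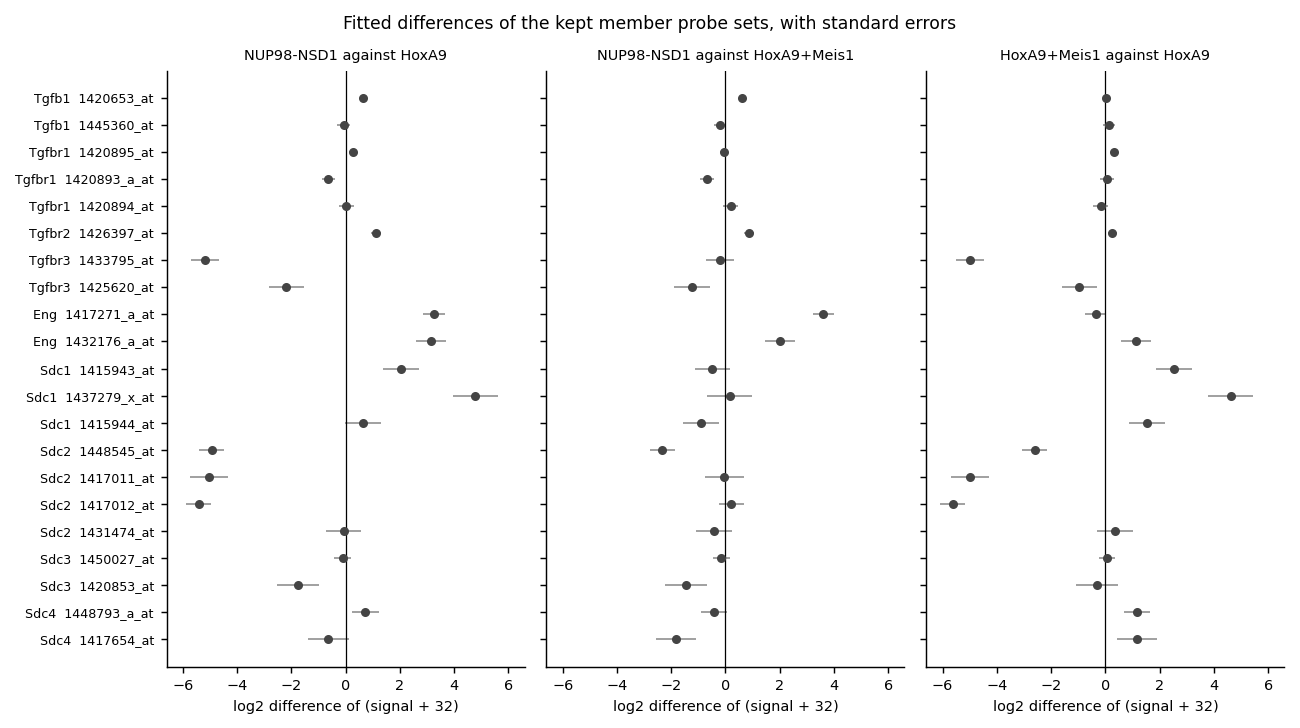
Fitted log2 differences of signal + 32 with standard errors as bars, for the 21 probe sets that passed the filter, in the 3 comparisons between clone groups. Points right of 0 are higher in the group named first. Both Eng sets are at 2.01 and 3.61 in the middle panel and Tgfbr3 1433795_at is at -4.99 in the right panel.

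For the 4 genes whose brightest probe set spanned at least 2 on the log2 scale between group means, the genes with the most alike pattern were found by the root mean square difference of centred log2 values over the 10 arrays, in which 0 would be the same pattern. For Tgfbr3 they were Tnfsf13os (0.98), Mcf2l (1.03) and Slfn4 (1.11), and Sdc2 was at 1.29. For Sdc2 they were Soga1 (0.85), Nenf (0.86) and Tnfsf13os (0.97). Mcf2l averaged 1234 in NUP98-NSD1, 10472 in MLL-ENL, 1259 in HoxA9+Meis1 and 10375 in HoxA9, so its MLL-ENL level was as high as that of HoxA9.

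Endoglin had a closer match than the others. For Eng the nearest were Ifi44l (0.25), Syne1 (0.55) and Hoxb5 (0.57). Ifi44l averaged 636 in NUP98-NSD1, 16.9 in MLL-ENL, 39.0 in HoxA9+Meis1 and 56.3 in HoxA9. Hoxb5 averaged 1661, 31.3, 49.6 and 51.3 in the same order. Outside NUP98-NSD1 the means of both lay under the filter level. Syne1 averaged 12273 in NUP98-NSD1, 859 in MLL-ENL, 1469 in HoxA9+Meis1 and 2164 in HoxA9. For Sdc1 they were Zfp385a (0.64), Nav1 (0.67) and Slc35d3 (0.68), and Zfp385a averaged 1865 in NUP98-NSD1, 1501 in MLL-ENL, 3409 in HoxA9+Meis1 and 583 in HoxA9. The arrays share groups and scaling, so these are descriptions of likeness only.

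The rest of the TGF-beta pathway was read from a list of 97 genes that leaves out the 9 above, of which 76 were measured, each by its brightest probe set. Between HoxA9+Meis1 and HoxA9, 8 rose and 5 fell, against 9.67% of the 14233 genes tested (4.61% higher, 5.06% lower). With a common median 3 rose and 3 fell, and of all 14233 genes 446 were higher and 313 lower, in place of 656 and 720. Thbs1, which can activate latent TGF-beta, fell 14.7-fold to 3742 ± 4074 in HoxA9+Meis1 against 38903 ± 14311 in HoxA9 clones (log2 difference -3.88, SE 0.63, adjusted p = 0.00402); with single clones left out the log2 difference was -4.76 to -3.20. Tsc22d1, a transcription factor found as a TGF-beta target, rose 11.5-fold to 29993 ± 4677 in HoxA9+Meis1 against 3559 ± 2624 in HoxA9 clones (adjusted p = 0.0117), and its log2 difference was 3.53, or 2.58 without HoxA9 clone 1. Averaged over its probe sets, 3 of 5 further ones being called, it was 2.06 (adjusted p = 0.0537).

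Smad1, the Smad that acts below BMP receptors and endoglin, was lowest in HoxA9+Meis1 among the clone groups. It averaged 332 ± 157 in HoxA9+Meis1 against 2401 ± 1596 in HoxA9 clones, a 6.22-fold fall (adjusted p = 0.00457), with 381 in MLL-ENL. In NUP98-NSD1 clones it averaged 4219 ± 797, which was 12.2-fold above HoxA9+Meis1 (log2 difference 3.61, SE 0.44, adjusted p = 3.3e-04). Both other Smad1 probe sets passed in the same direction in each comparison. Bambi, a decoy receptor, fell 2.23-fold in HoxA9+Meis1 relative to HoxA9 (adjusted p = 0.0211) and Acvr2a, an activin receptor, 2.13-fold (adjusted p = 0.0149). The Bambi call was lost without HoxA9 clone 2 or 3 or HoxA9+Meis1 clone 1 or 2, and that of Acvr2a without HoxA9 clone 2 or HoxA9+Meis1 clone 2. With a common median the adjusted p of Bambi was 0.082. Cdkn1a, a cell cycle inhibitor, rose 2.37-fold (adjusted p = 0.00979, or 0.0567 averaged over its probe sets).

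Between NUP98-NSD1 and HoxA9+Meis1, 10 of the 76 rose and 15 fell, against 32.4% of all genes (14.2% higher, 18.2% lower), and with a common median 10 rose and 7 fell. Over all 14233 genes that scaling gave 2029 higher and 1290 lower, in place of 2016 and 2592. Besides Smad1, Id2, an inhibitor of helix-loop-helix factors and a target of BMP signals, rose 4.80-fold to 11705 ± 3482 in NUP98-NSD1 against 2348 ± 61.7 in HoxA9+Meis1 clones (log2 difference 2.26, SE 0.20, adjusted p = 7.7e-05). Zfyve9, which brings Smads to the receptor, fell 3.70-fold (adjusted p = 0.00135), and Acvr1c, a type I receptor for nodal and activin, had an adjusted p of 0.014 and fell at least 1.57-fold. Thbs1 was 4.08-fold higher in NUP98-NSD1 than in HoxA9+Meis1 (adjusted p = 0.0322), and Ltbp4, which binds latent TGF-beta, 3.56-fold lower (adjusted p = 0.0489). Each of these 2 calls was lost on leaving out 5 of the 6 clones one at a time. Ltbp4 held without NUP98-NSD1 clone 1, at -2.73, and Thbs1 without HoxA9+Meis1 clone 3, at 2.90.

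Between NUP98-NSD1 and HoxA9, 11 of the 76 rose and 17 fell, against 31.5% of all genes (13.3% higher, 18.2% lower), and with a common median 12 rose and 10 fell. Over all 14233 genes that scaling gave 2039 higher and 1126 lower, in place of 1887 and 2596. Id2 was 5.07-fold higher in NUP98-NSD1 (adjusted p = 6.4e-05) and Bambi 4.17-fold lower (adjusted p = 4.7e-04). Thbs1 was 3.61-fold lower (adjusted p = 0.0462, or 0.0783 with a common median), the opposite of its direction against HoxA9+Meis1. Ltbp4, Acvr1c and Inhbb, a subunit of activin B and inhibin B, were also lower, with log2 differences of -2.18, -2.04 and -1.73. Of these, the calls of Thbs1 and Ltbp4 were lost on leaving out 5 of 6 clones in turn, that of Acvr1c on 4 and that of Inhbb on 3. The targets on the list held 4 rises and 0 falls among 8 measured: Id2, Tgfbi (1.39), Cdkn1a (1.30) and Junb (0.63), on the log2 scale. These comparisons cross the array sets.

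Genes that build, carry or trim heparan sulfate were read from a second list of 62, of which 52 were measured. Between HoxA9+Meis1 and HoxA9, 4 rose and 4 fell, against 9.67% of all genes (4.61% higher, 5.06% lower), and with a common median 1 rose and 0 fell. That scaling left 446 higher and 313 lower of all 14233 genes, in place of 656 and 720. Ezr, a linker of membrane proteins to actin that binds syndecan tails, rose 2.03-fold to 16001 ± 1955 in HoxA9+Meis1 against 7907 ± 1278 in HoxA9 clones (adjusted p = 0.00221). Its 1 further probe set did not pass, and averaged over both the log2 difference was 0.26 (adjusted p = 0.56). Cask, a scaffold that binds syndecans, fell 1.86-fold (adjusted p = 0.014), and its call was lost without HoxA9+Meis1 clone 2 and with a common median (adjusted p = 0.0841). Glce and Hs2st1, which modify the uronic acids of the chain, differed by -0.72 and 0.49 on the log2 scale, Slc35b2, a carrier of the sulfate donor, by -0.49, and Adam17, a sheddase of syndecans, by 0.48. The calls of Glce, Slc35b2 and Adam17 were each lost on leaving out 4 of the 6 clones in turn, and with Hs2st1 also with a common median (adjusted p 0.0536 to 0.277). Averaged over a gene's probe sets, the log2 differences were 0.22 for Hs2st1 (adjusted p = 0.441), -0.57 for Glce (0.242) and -0.25 for Slc35b2 (0.242), and none of the 3 further Hs2st1 probe sets passed.

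Between NUP98-NSD1 and HoxA9+Meis1, 7 of the 52 rose and 8 fell, against 32.4% of all genes (14.2% higher, 18.2% lower), and with a common median 7 rose and 5 fell. Of all 14233 genes 2029 were then higher and 1290 lower, in place of 2016 and 2592. Agrn, the proteoglycan agrin, averaged 1105 ± 330 in NUP98-NSD1 against 110 ± 71.4 in HoxA9+Meis1 clones, at least 2.76-fold higher (adjusted p = 0.00206). Hs6st2, a sulfotransferase of the chain, was at least 2.78-fold higher (adjusted p = 0.0153), a call lost without NUP98-NSD1 clone 1 or 2. Gpc6, a glypican, had an adjusted p of 0.00838 and was lower at least 1.56-fold, and the chain polymerase gene Ext1 2.76-fold lower (adjusted p = 0.0152), which was lost without HoxA9+Meis1 clone 1. Extl1 was 2.40-fold lower and Vcan at least 1.67-fold higher, with adjusted p of 0.0185 and 0.0498. The Extl1 call was lost without HoxA9+Meis1 clone 1 or 2, and that of Vcan on leaving out 5 of the 6 clones in turn.

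In NUP98-NSD1 relative to HoxA9, 7 of the 52 rose and 9 fell, against 31.5% of all genes (13.3% higher, 18.2% lower), and with a common median 7 rose and 6 fell. Of all 14233 genes 2039 were then higher and 1126 lower, in place of 1887 and 2596. Tiam1, an activator of Rac that binds syndecan tails, was 20.5-fold higher, at 8357 ± 601 in NUP98-NSD1 against 666 ± 721 in HoxA9 clones (log2 difference 4.36, SE 1.08, adjusted p = 0.013). It was 3.26 without HoxA9 clone 1 and 5.29 without HoxA9 clone 2. Sulf2, which removes sulfate from the chains outside the cell, was 2.89-fold higher, at 14343 ± 946 in NUP98-NSD1 against 4940 ± 363 in HoxA9 clones (adjusted p = 1.4e-05), with 15478 in MLL-ENL. Its 1 further probe set did not pass, and the mean of both gave 0.27 (adjusted p = 0.342). The 1 further probe set of Tiam1 and the 2 of Gpc6 did not pass either, and no further probe set of a gene named here passed in the opposite direction. Agrn was at least 2.76-fold higher and Gpc6 at least 1.94-fold lower, as against HoxA9+Meis1. Hs6st2 was at least 2.78-fold higher and Extl1 2.53-fold lower, calls lost on leaving out 4 and 2 of the 6 clones in turn.

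**Figure D4:**
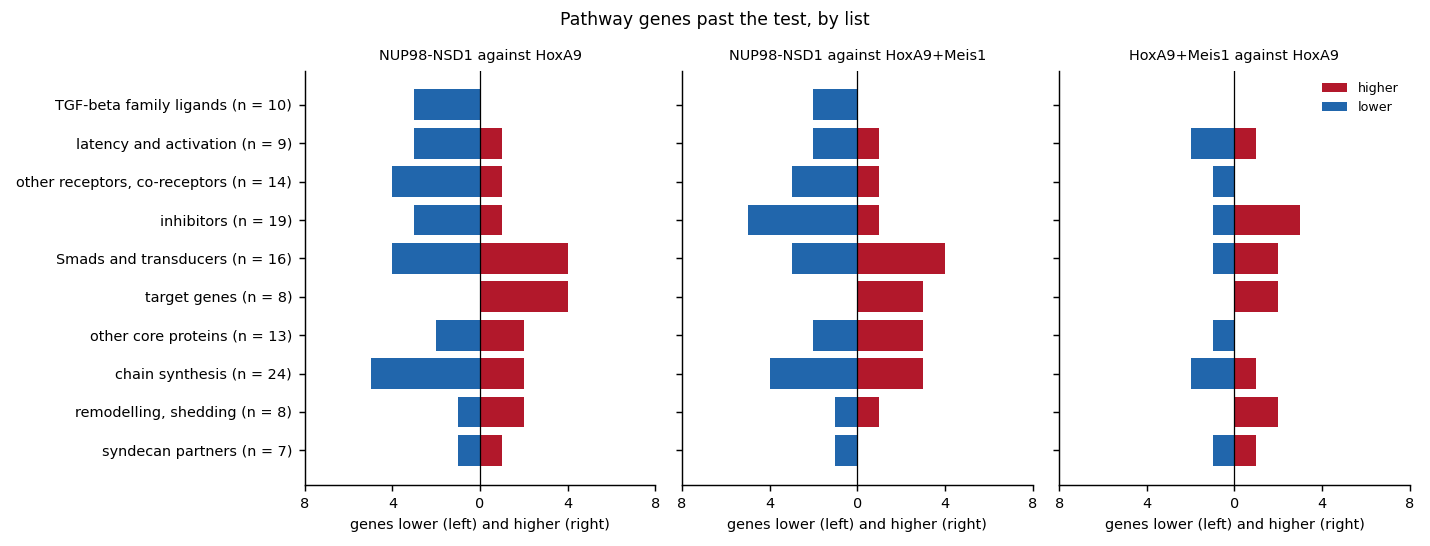
Number of genes past the test (limma adjusted p under 0.05) in each group of pathway genes, lower to the left and higher to the right, in the 3 comparisons, with the number measured beside each group name. The 8 target genes hold 4 rises and 0 falls between NUP98-NSD1 and HoxA9, where 13.3% of all genes were higher and 18.2% lower. That comparison crosses the array sets. The 10 further ligands hold 0 calls between HoxA9+Meis1 and HoxA9, where 9.67% of all genes were called.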

How the data were processed

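RNA of 10 cultures was read on Affymetrix Mouse Genome 430 2.0 arrays, and the oncogene that a label gives decided its group. The deposited table holds linear intensity values, 1 per probe set and array; their software is not given in the sources used here. Per the values, the authors had scaled them: the mean without the lowest and highest 2% of probe sets is 2500.01 to 2500.02 on every array. The array medians were 440.3 to 660.3, and the number of arrays limits the precision. All 10 value columns belong to samples (0 without one).

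Values were used as log2(signal + 32) with no further normalization. Probe sets that exceeded, in at least 3 arrays, the 40th percentile over the whole table were tested with limma 3.58.1 in R 4.3.3, with 4 group means over all arrays and eBayes with an intensity trend. Calls have a two-sided Benjamini-Hochberg adjusted p under 0.05 over all features tested. Symbols came from the platform annotation, brought up to date by Entrez ID. Pathway genes are represented by their brightest probe set. A fold "at least" sets a group wholly under the filter level to that level. Up to 6 called genes with the largest change per list and comparison are named, besides members of a count described. The genes and lists were chosen with earlier results of these data known. The fit was tested on simulated data. The labels tie clone numbers to no common animal or day, and deviations of same-numbered clones correlated at -0.06 to 0.04. Alternatives were 2 other scalings, offsets of 1 and 100, no filter and the 60th percentile, suffixed probe sets left out, the mean of probe sets, no trend, compared groups only, the clone number as a block, and leaving out each clone. Figures used Python 3.11.15 and matplotlib 3.10.9.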

Additional observations from a re-analysis of the deposited data

How the results depend on the processing

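Counts of probe sets of the 9 genes past the threshold stayed within 1.5 times their value under the alternatives run, apart from 1: without probe sets of suffix _x_at, _s_at or _a_at, 3 passed between NUP98-NSD1 and HoxA9+Meis1 in place of 5, since both Eng sets have such a suffix. Of all probe sets, 6675 of the 23736 left under that setting passed. Leaving out single clones gave 9 to 11 between NUP98-NSD1 and HoxA9, 5 to 6 between NUP98-NSD1 and HoxA9+Meis1, and 5 to 7 between HoxA9+Meis1 and HoxA9. Over all probe sets it gave 6113 to 9359, 6559 to 9276 and 1132 to 1820, in place of 8979, 9575 and 2131. TGF-beta pathway counts were 15 to 25, 15 to 23 and 6 to 11 in the same order, in place of 28, 25 and 13, and heparan sulfate counts were 12 to 20, 12 to 18 and 4 to 8, in place of 16, 15 and 8. The lowest TGF-beta counts came without HoxA9 clone 2, without HoxA9+Meis1 clone 2 and without HoxA9+Meis1 clone 2. Calls over all 14233 genes fell too, to 3095, 3249 and 748 in these fits, in place of 4483, 4608 and 1376. Between HoxA9+Meis1 and HoxA9, 6 TGF-beta genes passed with a common median and 7 without a trend, and of heparan sulfate genes 1 with a common median, 4 without a trend and 5 with the mean of probe sets. Of all genes, 759 passed with a common median, 773 without a trend and 1146 with the mean of probe sets. Between NUP98-NSD1 and HoxA9+Meis1, heparan sulfate genes were 9 with the filter at the 60th percentile, where 4338 of the 10454 genes tested passed. Apart from the suffixed Eng sets, the cause of these shifts was not tested.

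Sdc1 1415943_at, called between HoxA9+Meis1 and HoxA9 at an adjusted p of 0.0472, had 0.0506 with an offset of 100, 0.0551 with no filter, 0.132 without a trend and 0.0532 with the compared groups only. Tgfbr1 1420893_a_at passed between NUP98-NSD1 and HoxA9+Meis1 without a trend (0.0343). Sign changes touched differences that were not called. With a common median Tgfbr1 1420895_at was 0.09 between NUP98-NSD1 and HoxA9+Meis1, and with quantile normalization Tgfb1 1420653_at was -0.05 between HoxA9+Meis1 and HoxA9. Leaving out single clones gave, between NUP98-NSD1 and HoxA9+Meis1, -0.37 to 0.01 for Tgfb1 1445360_at, -0.14 to 0.06 for Tgfbr1 1420895_at, -0.95 to 0.33, -0.38 to 1.17 and -1.56 to 0.05 for Sdc1 1415943_at, 1437279_x_at and 1415944_at, and -0.33 to 0.01 for Sdc3 1450027_at. Between HoxA9+Meis1 and HoxA9 it gave -0.02 to 0.06 for Tgfb1 1420653_at, -0.09 to 0.19 for Tgfbr1 1420893_a_at, -0.74 to 0.04 for Eng 1417271_a_at and -0.23 to 0.39 for Sdc3 1450027_at.

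The clone numbers share only a number, with correlations of deviations of -0.06 to 0.04. With the clone number as a block, 11, 6 and 6 probe sets of the 9 genes passed, in place of 11, 5 and 6: Sdc4 1417654_at, at -1.81 between NUP98-NSD1 and HoxA9+Meis1, had an adjusted p of 0.0184. The block gave 27, 25 and 11 TGF-beta genes and 17, 15 and 7 heparan sulfate genes. It called 4113, 4247 and 1209 of all genes, and 8318, 8783 and 1901 of all probe sets.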
